A study of Homo sapiens with 10 samples.

Results

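The RNA levels of 10 genes of the hypoxia-inducible factor (HIF) pathway were followed in the human line 697, a leukaemia of B-cell precursors. They were the transcription factor genes HIF1A, EPAS1 and ARNT, the prolyl hydroxylase genes EGLN1, EGLN2 and EGLN3, the ubiquitin ligase gene VHL and the target genes NDRG1, VEGFA and BNIP3. The members were chosen by symbol, and all 10 were found once each among the 27142 genes of the deposited expression table. RNA was measured in 4 libraries of parental 697 cells, 2 control and 2 treated with the phorbol ester TPA (12-O-tetradecanoylphorbol-13-acetate), an activator of protein kinase C. The dose was 0.5 µg/ml, for a time that the labels state only as 0 to 24 h. All cells were grown in serum-supplemented medium, and the labels name no vehicle for the controls and no oxygen level. The 6 ChIP and input samples of the series were not analysed here.

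HIF is a pair of proteins, an alpha subunit (HIF-1α from HIF1A or HIF-2α from EPAS1) and the shared beta subunit from ARNT. When oxygen is present, the EGLN enzymes hydroxylate prolines of the alpha subunit, and VHL then recognises it and directs it to the proteasome. Alpha subunits are therefore controlled mostly at the protein level, which RNA does not show. When oxygen is short the pair binds short DNA elements and raises genes of glycolysis, blood vessel growth, mitophagy and its own feedback.

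Levels are given in RPKM, a read number divided by transcript length and library size, which can be compared between genes because length is divided out. Summed RPKM was 349438 to 388846 per library. Read totals are unknown. Low values move by whole reads. Relative depth was therefore read from the most frequent ratio to control replicate 1 among genes at 0.05 to 0.15 RPKM. The search covered only similar depths, and it put the other 3 libraries at 91.3% to 97.9% of control replicate 1. All 9 pre-B markers checked were at or above 1 RPKM in every library, with a summed level of 2085 to 2089 RPKM in control and 1196 to 1355 RPKM with TPA. The 28 markers of T cells, myeloid cells, erythroid cells, endothelium, fibroblasts and epithelium were below 1 RPKM in every library, apart from CSF1R and PECAM1 with TPA. CD3D, CD3E, TRAT1, HBB and KRT18 were listed at 0 in all libraries. The summed myeloid markers were 0.667 and 0.972 RPKM in control and 3.13 and 3.85 RPKM with TPA, and the endothelial ones 0.170 and 0.333 against 1.73 and 1.78 RPKM. The part of such cells or genes in the results that follow was not tested.

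With TPA, NDRG1 rose about 6.33-fold, BNIP3 fell to 37.7% of control and EGLN2 fell to 77.1%, while the 3 HIF subunit genes were not called. Differences were tested with limma on log2(RPKM + 1) over the 12159 genes that reached 1 RPKM in 2 or more libraries, and a gene was called at a Benjamini-Hochberg adjusted p under 0.05. Of the 10 genes 9 passed this filter, and of these 1 was higher, 2 were lower and 6 were not called. Over all genes tested, 28.4% were higher and 29.8% lower (58.2% in either direction), so a call in 3 of 9 genes is not more than the background. The median log2 fold change was -0.066 over the 9 genes and -0.024 over all genes tested. The labels do not state whether replicates came from separate cultures. The p-values therefore measure the spread between these libraries only, and it may be technical.

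**Figure D1:**
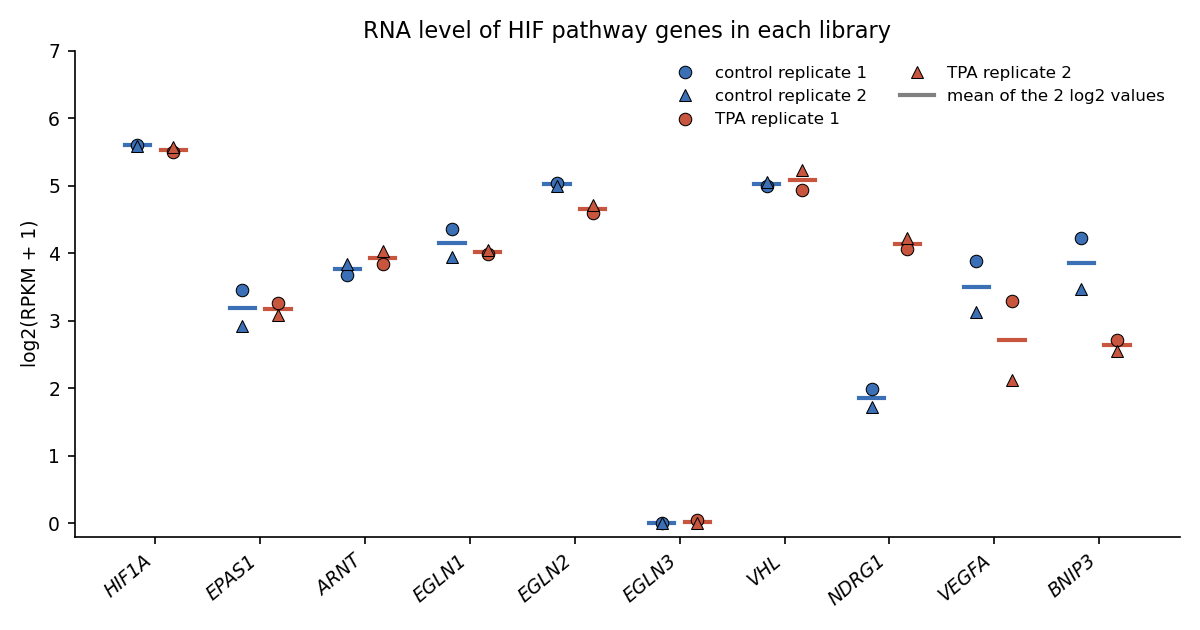
RNA level of the 10 genes in each library, on a log2(RPKM + 1) axis, with circles for replicate 1, triangles for replicate 2, blue for control and red for TPA, and bars at the mean of the 2 log2 values of a group. NDRG1 separates the groups most widely, EGLN3 lies at or near 0, and VEGFA, BNIP3, EPAS1 and EGLN1 have control replicate 2 below control replicate 1.

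The alpha subunit gene HIF1A had the highest level of the 10 in every library. It was at 47.9 and 47.1 RPKM in the control libraries and at 44.2 and 46.4 RPKM with TPA. The TPA values both lay just below the control values, and the difference was not called (log2 fold change -0.066, 95% confidence interval -0.36 to 0.23, limma adjusted p = 0.685). After quantile normalization its sign turned (0.043). Its locus (14q23.2) also holds the antisense genes HIF1A-AS2, at 24.5 ± 2.68 RPKM in control and 23.9 ± 2.30 RPKM with TPA (mean ± SD, n = 2), and HIF1A-AS1, at 7.26 ± 1.41 and 6.13 ± 0.302 RPKM. Whether reads were assigned by strand is not given in the sources used here, so sense and antisense reads there cannot be told apart.

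EPAS1, the gene of HIF-2α (2p21), is known best from endothelium and kidney, and it was present here at a lower level than HIF1A. It had 9.91 and 6.58 RPKM in control and 8.57 and 7.47 RPKM with TPA. Both TPA values lay between the 2 control values, and no change was called (log2 fold change -0.015, interval -0.45 to 0.42, limma adjusted p = 0.953). ARNT (1q21.3), the constitutive partner of both alpha subunits, was at 11.8 and 13.4 RPKM in control and at 13.2 and 15.3 RPKM with TPA. The groups overlapped, and the log2 fold change was 0.17 (interval -0.16 to 0.50, limma adjusted p = 0.335). For none of the 3 subunit genes did the interval reach a doubling or halving on this scale.

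The 3 prolyl hydroxylase genes stood at 3 different levels. EGLN2 (19q13.2), whose product PHD1 is one of the oxygen sensors, had the highest, at 32.0 and 30.9 RPKM in control and 23.2 and 25.3 RPKM with TPA. All control values were above all TPA values, and it fell by 0.36 on the log2 scale (SE 0.13, limma adjusted p = 0.0439). This call lay close to the threshold. It was lost after quantile normalization (log2 fold change -0.27, adjusted p = 0.0514) and without TPA replicate 1 (-0.30, adjusted p = 0.123). It was also lost without control replicate 1 (-0.34) and without control replicate 2 (-0.39), in fits whose p-values are not comparable with the others because limma's prior degrees of freedom became infinite. The table also lists the readthrough transcript RAB4B-EGLN2, which shares exons with EGLN2, at 24.7 ± 0.701 RPKM in control and 21.0 ± 1.33 RPKM with TPA (not called, limma adjusted p = 0.173). Reads of the 2 could be split between them, so the level of EGLN2 is uncertain.

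EGLN1 (1q42.2) encodes PHD2, the main hydroxylase of HIF-1α in most cells. It had 19.5 and 14.4 RPKM in control and 14.9 and 15.5 RPKM with TPA, so control replicate 1 stood above the other 3 libraries. Its log2 fold change was -0.13 (interval -0.51 to 0.25, limma adjusted p = 0.523), and without control replicate 1 it was 0.077. EGLN3 (14q13.1), the gene of PHD3 and in many cells a strongly hypoxia-inducible target itself, was listed at 0 in both control libraries and in TPA replicate 2, and at 0.03 RPKM in TPA replicate 1. It did not pass the filter and was not tested.

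VHL (3p25.3), whose product carries hydroxylated HIF alpha subunits to ubiquitination, had 30.8 and 32.1 RPKM in control and 29.8 and 36.4 RPKM with TPA. The TPA libraries lay on either side of the controls. No change was called (log2 fold change 0.065, interval -0.27 to 0.40, limma adjusted p = 0.727), and the sign turned without TPA replicate 2 (-0.077).

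**Figure D2:**
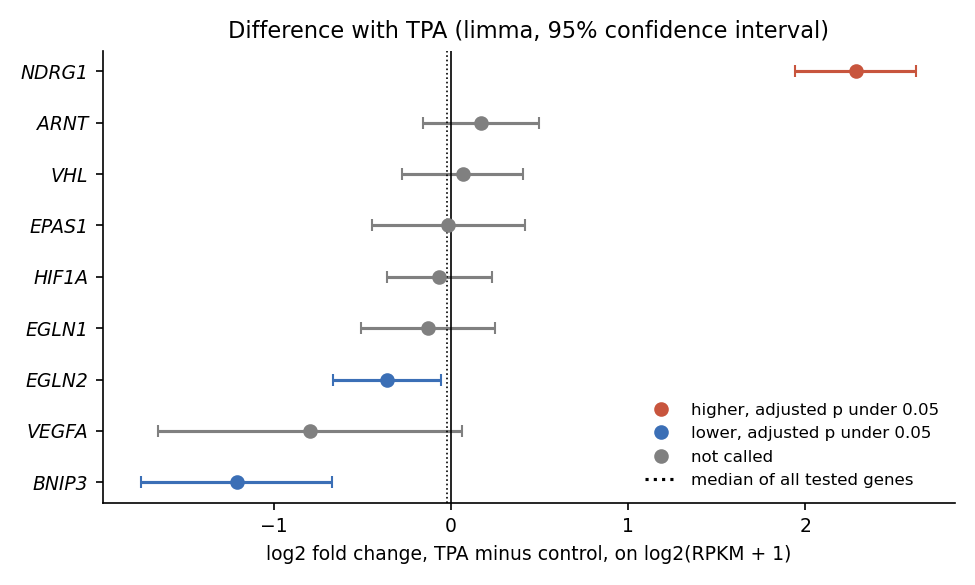
Log2 fold change of the 9 tested genes, TPA minus control on log2(RPKM + 1), with limma's 95% confidence interval, coloured by whether the adjusted p was under 0.05; the dotted line is the median of all tested genes. NDRG1 lies at 2.28, BNIP3 at -1.21 and EGLN2 at -0.36, and the interval of VEGFA, from -1.65 to 0.061, is the widest.

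Of the 3 target genes, NDRG1 rose, BNIP3 fell and VEGFA was not called. NDRG1 (8q24.22), which encodes a protein of the alpha/beta hydrolase fold tied to differentiation and stress and is raised by HIF in many cell types, had 2.95 and 2.30 RPKM in control and 15.6 and 17.6 RPKM with TPA. Every TPA value was above every control value, and the rise was called (log2 fold change 2.28, SE 0.147, limma adjusted p = 7.45e-06). It stayed called in every alternative setting that kept all 4 libraries, and it stayed higher with each library left out. The log2 fold changes over the 13 alternative settings were from 2.15 to 2.62.

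BNIP3 (10q26.3), a mitochondrial outer membrane protein gene that acts in mitophagy and is a direct HIF-1 target, moved the other way. It was at 17.7 and 10.1 RPKM in control and at 5.59 and 4.88 RPKM with TPA, a mean of 13.9 ± 5.43 against 5.23 ± 0.506 RPKM (SD, n = 2). The groups did not overlap although the control libraries differed by 1.76-fold in RPKM. The log2 fold change was -1.21 (SE 0.233, limma adjusted p = 0.00272), and BNIP3 was called in every alternative setting that kept all 4 libraries. With 1 library left out the log2 fold change stayed below 0, from -1.59 without control replicate 2 to -0.83 without control replicate 1.

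VEGFA (6p21.1), the gene of the main angiogenic growth factor, was at 13.7 and 7.77 RPKM in control and at 8.79 and 3.36 RPKM with TPA. Control replicate 2 lay below TPA replicate 1, so the groups overlapped, and the difference was not called (log2 fold change -0.80, SE 0.371, limma adjusted p = 0.0997). At each replicate number the TPA library was below the control library, but the labels do not say what a shared number means. Of the fits that kept all 4 libraries, only that with the replicate number as a block called VEGFA. The size of the difference also depended on which library was left out. The log2 fold change was -0.21 without TPA replicate 2 (adjusted p = 0.589) and -1.38 without TPA replicate 1 (0.0139). Without control replicate 1 it was -0.42 (not called) and without control replicate 2 it was -1.17 (called), again with p-values that are not comparable.

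In control the order of the mean levels was HIF1A, EGLN2, VHL, EGLN1, BNIP3, ARNT, VEGFA, EPAS1, NDRG1 and EGLN3. EGLN2 and VHL overlapped in their libraries, as did each neighbouring pair from EGLN1 to EPAS1. With TPA the order was HIF1A, VHL, EGLN2, NDRG1, EGLN1, ARNT, EPAS1, VEGFA, BNIP3 and EGLN3. NDRG1 went from the 9th place to the 4th, just above EGLN1, and BNIP3 from the 5th to the 9th. EGLN1 and ARNT, EPAS1 and VEGFA, and VEGFA and BNIP3 were the neighbours whose TPA libraries overlapped.

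The libraries of one group also differed in a part of these genes. Replicate 2 was set against replicate 1 as a ratio of RPKM + 1, with 1 library on each side and so with no test, and a ratio of 1.5-fold was used as the mark. In control, VEGFA and BNIP3 were lower in replicate 2 by 1.68-fold and 1.69-fold, which makes 2 of 9 genes past the mark, against 0.979% of all genes tested. No member was higher past the mark, against 0.740% of all genes. EPAS1 and EGLN1 were also lower in control replicate 2, by 1.44-fold and 1.33-fold. HIF1A, EGLN2 and VHL, with folds of 1.02, 1.04 and 0.961 (replicate 1 over replicate 2), were nearly level.

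With TPA, VEGFA was again lower in replicate 2, by 2.25-fold, as the only one of 9 genes past the mark in that direction (1.48% of all genes). None of the 9 was higher past it, where 2.45% of all genes were. BNIP3 differed by 1.12-fold and EPAS1 by 1.13-fold between the TPA libraries, and EGLN1 and NDRG1 were slightly higher in replicate 2. VEGFA was thus the 1 member past the mark in both groups, which held for 38 of the genes tested (0.313%). The members were chosen with earlier results of these data known. Their replicate differences beside the shares of all genes, in control and with TPA, are therefore a description. The replicate number is a label only, and no source used here says that libraries with the same number shared a culture or a day.

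**Figure D3:**
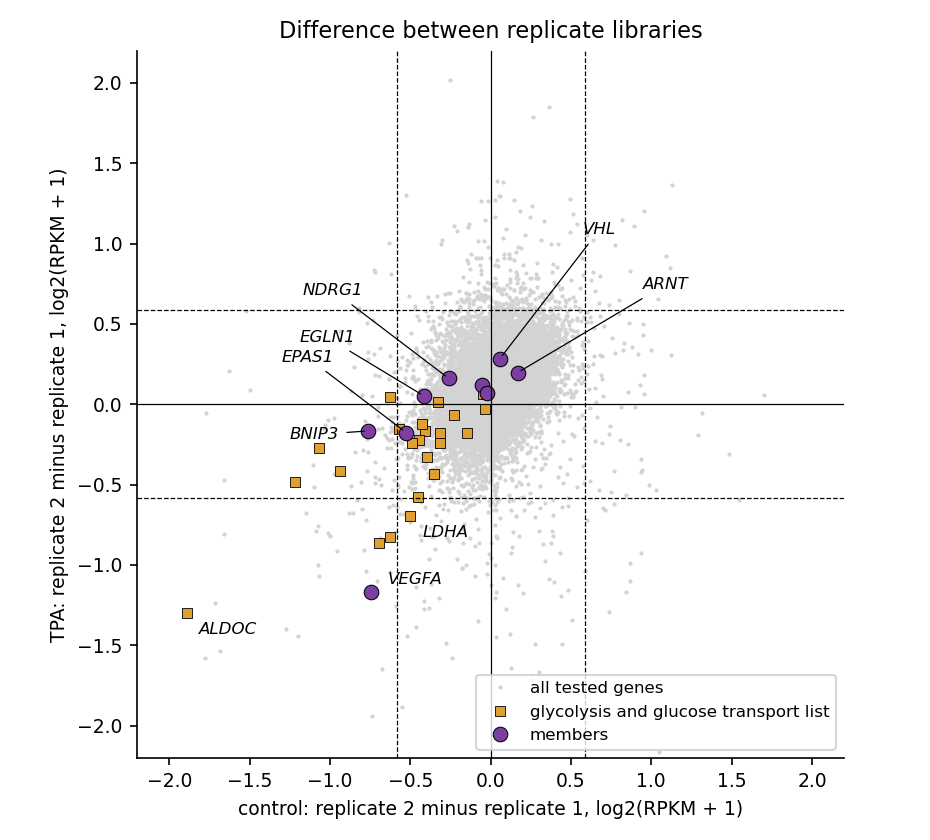
Replicate 2 minus replicate 1 on log2(RPKM + 1), in control (horizontal axis) and with TPA (vertical axis), for all tested genes (grey), the glycolysis and glucose transport list (squares) and the members (circles); dashed lines mark 1.5-fold, and 2 genes lie outside the axes. VEGFA is low in replicate 2 of both groups, BNIP3 in control only past the mark, and the squares lie mostly in the lower left, below 0 on both axes.

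Promoter sequence was available from RefSeq (GRCh38.p14) for 7 of the 10 genes, and not for VHL, NDRG1 and VEGFA. The core of the hypoxia response element, searched as ACGTG and GCGTG on both strands from 250 bases before to 50 bases after the start, was found for 5 of the 7 (HIF1A, EPAS1, EGLN1, EGLN2 and BNIP3), and in 48.4% of all 35116 promoters of this length. HIF1A and EGLN2 have 2 annotated starts each, of which 1 held a match. The 5 of 7 counts genes with a match at any start, and the 48.4% counts single promoters, so these shares are not alike. BNIP3 held 6 matches, 2 of ACGTG that overlap as the palindrome CACGTG and 4 of GCGTG, all between 143 and 100 bases before the start, and 0.923% of all promoters held 6 or more. The mark of 6 was taken from BNIP3, the member with the most matches, so this share is not a test. It was also not matched for base composition, and G and C made up 80.7% of the BNIP3 stretch searched. A match is a run of letters and not evidence of binding. The 250 bases before the start are shown for BNIP3, the member that fell most, and for the hydroxylase genes EGLN2, which fell, and EGLN1, which was not called. Capitals mark the matches, on the strand of the gene (a match on the other strand reads CACGT or CACGC).
BNIP3, chr10:131981924-131982173, minus strand: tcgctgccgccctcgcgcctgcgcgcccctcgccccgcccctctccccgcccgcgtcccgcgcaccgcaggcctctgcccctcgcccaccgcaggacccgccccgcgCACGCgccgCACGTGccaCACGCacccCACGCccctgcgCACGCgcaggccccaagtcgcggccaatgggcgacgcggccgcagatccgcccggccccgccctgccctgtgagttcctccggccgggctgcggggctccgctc
EGLN2, chr19:40798941-40799190, plus strand: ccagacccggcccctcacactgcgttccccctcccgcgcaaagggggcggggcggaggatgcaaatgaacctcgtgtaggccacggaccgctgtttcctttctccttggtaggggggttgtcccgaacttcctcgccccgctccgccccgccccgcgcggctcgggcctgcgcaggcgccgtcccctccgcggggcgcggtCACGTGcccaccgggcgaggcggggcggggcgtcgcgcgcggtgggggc
EGLN1, chr1:231422288-231422537, minus strand: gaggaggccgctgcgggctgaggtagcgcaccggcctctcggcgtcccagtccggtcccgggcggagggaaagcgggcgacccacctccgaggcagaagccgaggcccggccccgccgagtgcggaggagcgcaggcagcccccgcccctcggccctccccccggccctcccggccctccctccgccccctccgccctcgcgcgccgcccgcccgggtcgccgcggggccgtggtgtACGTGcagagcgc

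Other regulators of the pathway were read from a list of 23 genes, of which 21 were tested. With TPA 6 rose (28.6%, against 28.4% of all genes), 4 fell (19.0%, against 29.8%) and 11 were not called. The share that rose was near that of all genes, and the share that fell was not above it. Their median log2 fold change was -0.062. CITED2, whose product competes with HIF for the coactivators CBP and p300, was at 11.2 and 10.6 RPKM in control and at 100.4 and 105.1 RPKM with TPA (log2 fold change 3.12, limma adjusted p = 9.13e-07). WSB1, a ubiquitin ligase subunit gene, rose from 22.7 ± 0.0764 to 43.8 ± 5.38 RPKM. EP300, the gene of p300, rose by less (log2 fold change 0.42, limma adjusted p = 0.0426). HSP90AA1, a chaperone that holds HIF alpha subunits among many clients, fell from 497 and 682 RPKM to 209 and 227 RPKM. The SUMO protease gene SENP1 fell by 0.73 on the log2 scale. SIAH2 and HSP90AB1, named after their values were seen, also fell. HIF1AN (log2 fold change 0.61), OS9 (0.91) and USP20 (0.74), named likewise, were called higher. The number that fell was 2 in each fit without control replicate 1, control replicate 2 or TPA replicate 1. Between replicates, none of the 21 was past 1.5-fold in either group. PSMD10, a proteasome regulator gene, had the largest mean rise from replicate 1 to 2, at 22.2 and 27.6 RPKM in control and 20.3 and 27.6 RPKM with TPA.

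Among genes of glycolysis and glucose transport, the best known metabolic targets of HIF-1, more fell than rose with TPA. Of 25 listed, 23 were tested, and 13 fell (56.5%, against 29.8% of all genes), 5 rose (21.7%, against 28.4%) and 5 were not called, with a median log2 fold change of -0.78. The list, like the others here, was chosen with earlier results of these data known. Its shares beside those of all genes are therefore a description and no independent support. LDHA, which turns pyruvate into lactate, was at 660 and 467 RPKM in control and at 160 and 98.1 RPKM with TPA (log2 fold change -2.14, limma adjusted p = 1.93e-04). GPI, the second enzyme of glycolysis, fell from 90.4 ± 1.48 to 44.7 ± 0.675 RPKM, and PFKP, a phosphofructokinase, had a log2 fold change of -0.98. In contrast, the glucose transporter gene SLC2A3 rose from 4.11 and 3.11 RPKM to 20.7 and 18.2 RPKM, and PFKFB3, a regulator of phosphofructokinase, rose by 0.60 on the log2 scale. The hexokinase gene HK2, the kinase gene PDK3 and the glycogen synthase gene GYS1 made up the 5 that rose and were named after their values were seen. With 1 library left out, the number that fell was 9 to 13 of 23, lowest without TPA replicate 2 and 10 without control replicate 1, and the number that rose was 8 (control replicate 1 out), 1 (control replicate 2 out) and 3 (TPA replicate 1 out).

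The same list differed between replicate libraries. In control all 23 tested genes were lower in replicate 2 than in replicate 1, with a median difference of -0.44 on log2(RPKM + 1), where 38.9% of all genes were lower and their median difference was 0.049. With TPA 20 of 23 were lower in replicate 2, with a median of -0.24, where 26.8% of all genes were lower and the median was 0.13. ALDOC, an aldolase gene, had the largest mean difference, at 93.3 and 24.4 RPKM in control and at 24.5 and 9.34 RPKM with TPA. Past the 1.5-fold mark were 7 genes in control (30.4%, against 0.979% of all genes) and 4 with TPA (17.4%, against 1.48%), and ALDOA, ALDOC and ENO1 in both (LDHA was the fourth with TPA), of which ALDOA and ENO1 were named after their values were seen. These genes share the replicate order with VEGFA and BNIP3. The list was chosen with earlier results known, so its excess over all genes is a description here too. No cause of this order was tested.

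**Figure D4:**
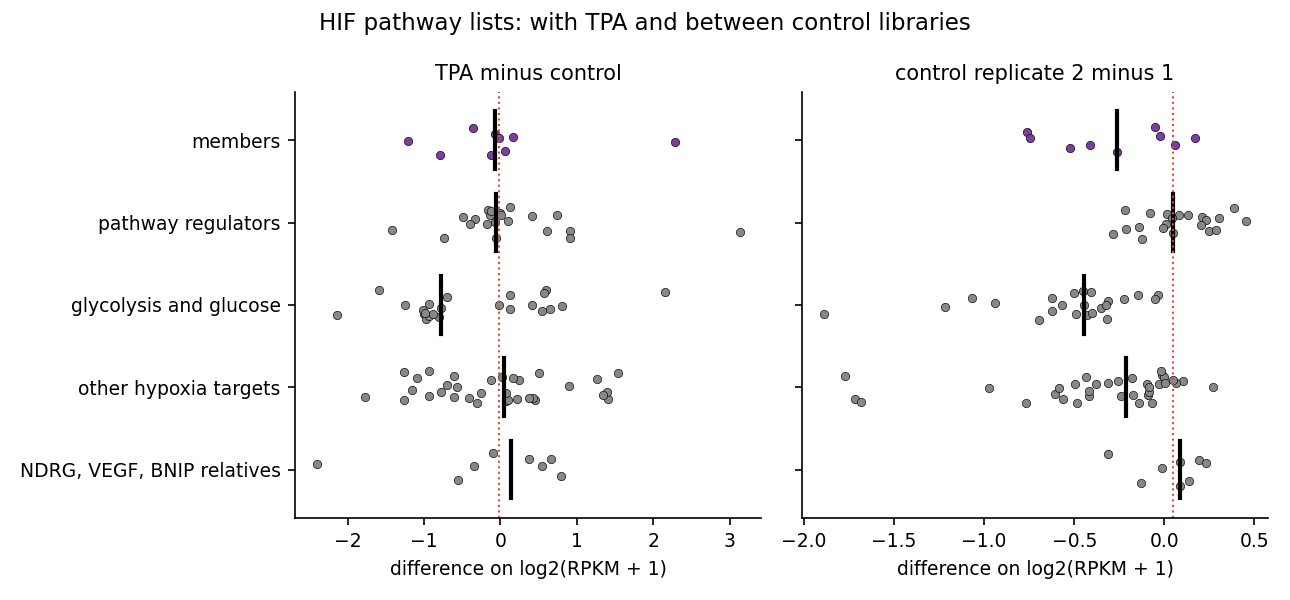
Difference with TPA (left) and between the 2 control libraries (right) on log2(RPKM + 1) for each tested gene of the members and the 4 lists, with black bars at the list medians and a dotted line at the median of all tested genes; MB, at 8.77 on the left, lies beyond the axis and is not drawn in that panel. The glycolysis and glucose list lies left of the dotted line in most of its genes on the left (median -0.78) and in all of them on the right (median -0.44).

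Hypoxia targets outside glycolysis held genes called in both directions, at shares near those of all genes. Of 47 listed, 34 were tested, and 11 rose (32.4%, against 28.4% of all genes), 12 fell (35.3%, against 29.8%) and 11 were not called, with a median log2 fold change of 0.040, while 13 did not pass the filter. The largest rise was that of MB, the oxygen-binding protein gene of muscle, from 0.436 and 0.734 RPKM to 636 and 747 RPKM. STC2, a secreted glycoprotein gene, fell from 10.3 and 7.50 RPKM to 1.86 and 1.89 RPKM, and the amino acid transporter gene SLC7A5 fell from 70.8 and 67.5 RPKM to 33.8 and 30.2 RPKM. The number that rose was 7 without control replicate 2 and 7 without TPA replicate 2.

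In these targets too, replicate 2 was often the lower control library, in a list also chosen with earlier results of these data known. In control 28 of the 34 were lower in replicate 2 (82.4%, against 38.9% of all genes), and 6 were past the mark (17.6%, against 0.979%). With TPA 16 were lower (47.1%, against 26.8%), and 5 were past the mark (14.7%, against 1.48%). MIR210HG, the host gene of the hypoxia-induced miR-210, had the largest mean difference, at 4.88 and 0.827 RPKM in control and at 2.42 and 0.182 RPKM with TPA. It was not called with TPA (log2 fold change -0.70, limma adjusted p = 0.333). BHLHE40, a circadian and hypoxia-induced repressor gene, and PPFIA4, named after their values were seen, were the other 2 past the mark in both groups, and TFRC and CXCR4, named likewise, were past it with TPA only. BHLHE40 had 5.61 and 1.01 RPKM in control and 5.59 and 1.80 RPKM with TPA.

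Relatives of the 3 target genes went in different directions. Of 15 listed genes of the NDRG, VEGF and BNIP families and VEGF receptors, 8 were tested, and 4 rose, 2 fell and 2 were not called, beside 28.4% higher and 29.8% lower over all genes. The number that rose was 2 without control replicate 2 and 2 without TPA replicate 1. NDRG3 and NDRG4 rose from 8.87 ± 0.929 to 14.7 ± 2.47 and from 13.1 ± 0.895 to 19.6 ± 1.28 RPKM, with smaller fold changes than NDRG1, and NDRG2 fell by 0.55 on the log2 scale. VEGFB, a growth factor that binds the receptor FLT1, fell from 38.2 and 30.6 RPKM to 4.51 and 7.03 RPKM (log2 fold change -2.40, limma adjusted p = 3.08e-05). FLT1 itself had 9.65 and 11.5 RPKM in control and 23.6 and 15.1 RPKM with TPA, and it rose with a log2 fold change of 0.79 (limma adjusted p = 0.0123). The co-receptor gene NRP2 was the other gene that rose, named after its values were seen. The difference between NDRG1 and its relatives was not tested.

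The genes with the pattern most like that of a member were sought for NDRG1 and VEGFA, the 2 members with the widest range over the 4 libraries. Likeness was the Euclidean distance of the 4 log2(RPKM + 1) values, centred on each gene's mean. Nearest to NDRG1 were DLGAP1-AS1 (distance 0.110), CMTM1 (0.111) and CD9 (0.153). DLGAP1-AS1 was at 0.086 and 0 RPKM in control and at 3.93 and 4.26 RPKM with TPA, and it passed the filter only through TPA. At such levels the added 1 RPKM sets much of the distance, so its likeness does not hold for the fold change in RPKM. Nearest to VEGFA were MIR6889 (0.130), SNORA26 (0.218) and MIF (0.253). MIR6889 was at 3.30 and 1.51 RPKM in control and at 1.87 and 0.402 RPKM with TPA. SNORA26 was at 6.3 and 3.3 RPKM in control and at 3.8 and 1.5 RPKM with TPA. The added 1 RPKM weighs on these distances too, most for MIR6889. MIF, a cytokine gene, was at 955 and 584 RPKM in control and at 531 and 292 RPKM with TPA, so that, as for VEGFA, replicate 2 was the lower library in both groups. With 4 libraries many genes can lie this close, and the distances are a description.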

How the data were processed

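The authors deposited 1 table with an RPKM value per gene and RNA library, per the file headers, with 1 RefSeq transcript, symbol and cytogenetic band per gene. CASAVA 1.8, Bowtie 1.12, TopHat, SAMtools, HOMER and the build hg19 are named in the submitters' processing notes, with no role or order, and strand use and the treatment of reads that map to several places are not given in the sources used here. Libraries were grouped by their titles. RPKM is not a count, so log2(RPKM + 1) was fitted with limma 3.58.1 in R 4.3.3 (TPA minus control, trended empirical Bayes, 2 residual and 5.88 prior degrees of freedom, two-sided, Benjamini-Hochberg over all 12159 genes tested). Fold changes on this scale understate those of low genes. The fit was tested on simulated data with the same spread for every gene, few changed genes and no replicate difference. That setting is simpler than these libraries, so it does not show how well the fit does on them. The absolute depth is unknown, so no counting intervals are given.

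The members, the 4 lists and the markers were chosen with earlier results of these data known. Named were all members and, per list, the 2 genes with the smallest p in each direction and the genes with the largest mean rise and fall from replicate 1 to 2. One gene that this rule takes is not reported here. For likeness, 3 genes were named for each of the 2 members of widest range. Alternatives were pseudocounts of 0.1 and 0.5, quantile normalization, median-of-ratios scaling, no filter or one at 5 RPKM, an untrended or a robust limma fit, the replicate number as a block, and each library left out. The counts for lists without each library were added after seeing the data. Each rests on a fit with 1 library left in a group, and without a control library the prior degrees of freedom were infinite. Promoters came from RefSeq's GRCh38.p14 table, and expression from hg19.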

Additional observations from a re-analysis of the deposited data

How the results depend on the processing

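One member was called higher with TPA under every alternative run that kept all 4 libraries. The number lower there was 2, but 1 after quantile normalization, where EGLN2 was lost. It was 3 with the replicate number as a replicate block, where VEGFA joined them (log2 fold change -0.80, limma adjusted p = 0.00125). With 1 library left out the lower members called were not the same throughout. Without control replicate 2 or TPA replicate 1, VEGFA was called and EGLN2 was not. All genes called numbered 5470 to 8234. The labels do not say what a shared number means, and across 12159 genes the replicate deviations of control and TPA correlated at 0.361, which is no more than a hint from the data; with the block no other member's call changed. With a mark of 2-fold, 0 members were lower in control replicate 2. Signs turned only for genes that were not called: EPAS1 (0.0137 with median-of-ratios scaling, 1.39e-04 with quantile normalization, and -0.28 to 0.25 with 1 library left out, above 0 without control replicate 1 or TPA replicate 2), HIF1A (0.043 with quantile normalization), EGLN1 (-0.34 to 0.077 with 1 library left out, above 0 without control replicate 1) and VHL (-0.077 to 0.21 with 1 library left out, below 0 without TPA replicate 2). Without either control library limma's prior degrees of freedom became infinite, and the group left with 1 library is assumed to vary like the other, so those p-values cannot be set against the others. Of the 117 comparisons of a member under an alternative, 103 kept direction and call. With 2 libraries per group and unknown depth, small differences such as that of EGLN2 were at the limit of what could be called.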
